A study of Mus musculus with 3 samples.

Results

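The 10 genes described here encode 2 granins (*Chga* and *Chgb*) and 8 peptide hormones of the gut (*Sct*, *Cck*, *Gcg*, *Ghrl*, *Pyy*, *Nts*, *Gip* and *Sst*). They were taken by symbol from the 28692 genes of the deposited tables, and all 10 were present. The tables came from droplet-based single-cell RNA sequencing (10x Genomics Chromium, version 3 chemistry, which reads the 3' end of transcripts) of small intestinal crypts from adult C57BL/6 mice of 2 to 3 months. There were 3 libraries, 1 for each genotype, and the labels do not say how many mice each one pools. Throughout, 3 values in a row without names are those of the control, the KO and the rescue, in that order. All 3 carried Olfm4-IRES-eGFPCreERT2, a Cre recombinase that tamoxifen activates and that is made where *Olfm4*, a gene of crypt base stem cells, is expressed, so that other cells are reached only as descendants. The control was CDC42+/flox and so carried 1 floxed allele, the KO was CDC42flox/flox, and the rescue was CDC42flox/flox with Yapflox/flox and Tazflox/+. Induction is not described in the labels. With 1 library per genotype no test between genotypes was possible. Intervals are 95% intervals that cover counting error only, and differences are between these libraries.

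GENCODE M21 (GRCm38) places the granin genes *Chga* at chr12:102554969-102565028 on the plus strand and *Chgb* at chr2:132781278-132795079 on the plus strand. It places the protein-coding hormone genes *Cck* at chr9:121489824-121495694 on the minus strand, *Gcg* at chr2:62474530-62483650 on the minus strand, *Gip* at chr11:96024545-96030831 on the plus strand and *Sst* at chr16:23889573-23890958 on the minus strand, and *Sct* at chr7:141278330-141279133 on the minus strand, *Nts* at chr10:102481756-102490486 on the minus strand, *Pyy* at chr11:102106676-102107832 on the minus strand and *Ghrl* at chr6:113716119-113719880 on the minus strand.

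Enteroendocrine cells are scattered hormone-secreting cells of the gut epithelium that arise from crypt stem cells through a progenitor stage marked by *Neurog3*. They pack peptides into dense-core granules, in which the acidic granin proteins are abundant, and each cell usually makes a small set of hormones that depends on its position along the crypt, the villus and the gut. Enterochromaffin cells make serotonin with *Tph1* and the tachykinin gene *Tac1*, and other cells are known for cholecystokinin, glucagon-like peptides, ghrelin, GIP or somatostatin.

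The cell limits were 500 genes, 1000 unique molecular identifiers (UMIs, which count RNA molecules) and a mitochondrial share of no more than 20%. They left 1595 of 6152 control barcodes, 2036 of 4786 KO barcodes and 1897 of 3449 rescue barcodes. Kept barcodes with 0 *Ptprc* UMIs, the common leukocyte gene, and at least 0.1% of UMIs from *Chga* and *Chgb* are called enteroendocrine, and there were 44, 27 and 19 of them. Other barcodes with at least 2 UMIs of the epithelial gene *Epcam* numbered 751, 1597 and 915. Barcodes with *Ptprc* and no *Epcam* (366, 125 and 472) gave the level of RNA free in the suspension. Median depth of enteroendocrine barcodes was 18600, 10004 and 18608 UMIs, so the KO barcodes were shallower. The highest was a rescue barcode with 159276 UMIs. The KO and control libraries shared 11 barcode sequences, rescue and control 3, and rescue and KO 6, and 1 KO enteroendocrine barcode was among them. *Cdc42* stood at 255, 386 and 385 CPM in other *Epcam* barcodes (CPM: a gene's UMIs divided by the total of the same barcodes and scaled up by a fixed factor). In enteroendocrine barcodes it stood at 355, 261 and 319 CPM. A 3' tag can lie outside the floxed part, so these values do not check the deletion.

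Since *Chga* and *Chgb* chose the enteroendocrine barcodes, their levels there are a description. The label was checked on 20 genes of granule processing that the choice did not use: of those with at least 20 UMIs in other *Epcam* barcodes, 9 of 9, 5 of 5 and 14 of 14 were at least 2-fold higher in enteroendocrine barcodes of the same library. Of all genes with as many UMIs there, 25.9%, 28.8% and 21.1% were. Another 9, 12 and 4 of the 20 reached 20 UMIs in the enteroendocrine barcodes but not in the others, so that a difference was fixed, and they are not counted. *Cpe*, a carboxypeptidase that trims prohormones, stood at 1080, 1100 and 597 CPM in enteroendocrine barcodes and at 5.7, 2.1 and 4.0 CPM in other *Epcam* barcodes. The barcodes nearest to the granin threshold held 0.165%, 0.12% and 0.117% of UMIs from granins on the inside and 0.0968%, 0.0865% and 0.0898% on the outside.

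Of enteroendocrine and other *Epcam* barcodes together, the enteroendocrine ones made up 5.53% (control; 4.05 to 7.36%, Clopper-Pearson), 1.66% (KO; 1.10 to 2.41%) and 2.03% (rescue; 1.23 to 3.16%). At these limits the control interval lay above both others, and the KO and rescue intervals overlapped. The share moved with the mitochondrial limit: without one it was 1.87%, 1.00% and 1.41%, and with a limit of 10% it was 8.35%, 1.66% and 5%. Intervals were not computed for those settings, so the separation of the control is shown for the main limits only.

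**Figure D1:**
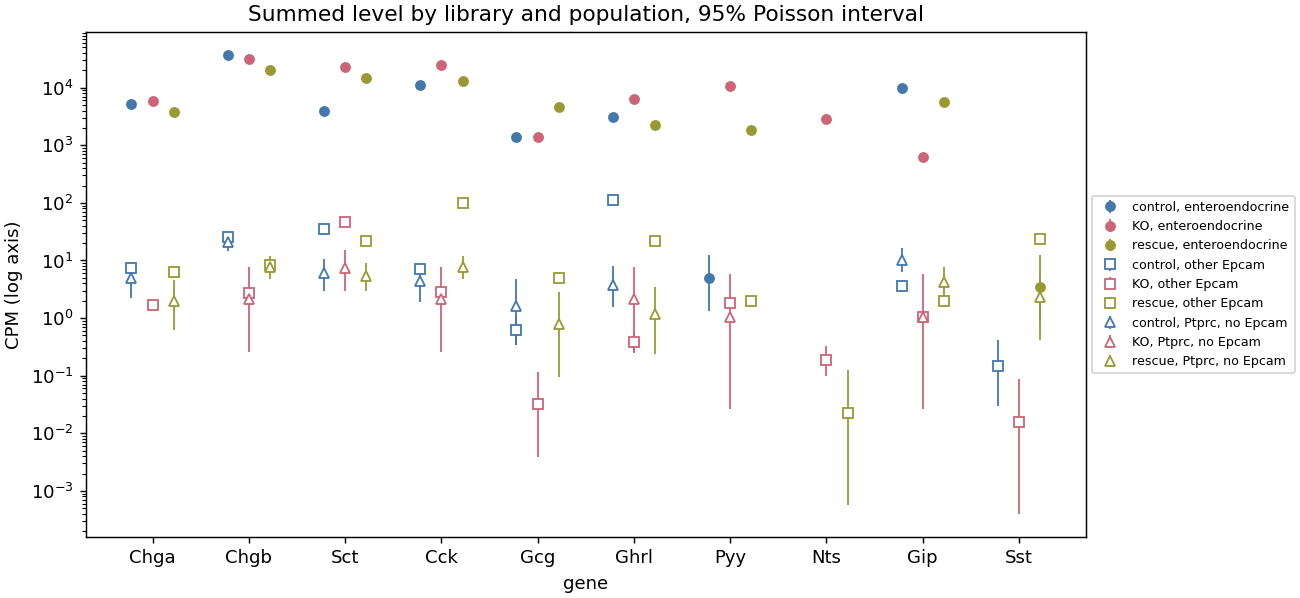
Level of each gene, in CPM on a log axis, by library (colour) and population (marker), with 95% Poisson intervals; genes at 0 UMIs are not drawn. *Pyy* in enteroendocrine barcodes sits at 4.9, 10532 and 1867 CPM, whereas *Chgb* lies between 20486 and 36273 CPM.

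*Chgb*, secretogranin I, was the granin with more UMIs in each library. Its level over enteroendocrine barcodes was 36273, 31598 and 20486 CPM, and every enteroendocrine barcode held it. Across single barcodes the control ran from 60.1 to 101317 CPM with a median of 40956, the KO from 1068 to 92073 with a median of 18102, and the rescue from 899 to 73549 with a median of 38882. The 3 ranges overlapped over most of their width. *Chga*, chromogranin A, stood at 5162, 5912 and 3832 CPM and was found in 42 of 44, 26 of 27 and 18 of 19 barcodes. The order of the libraries for both granins changed sign under some settings, such as the mean of per-barcode CPM, and no direction is drawn from it. Outside these barcodes *Chgb* stood at 25.2 CPM in other *Epcam* barcodes of the control and at 20.8 CPM in its *Ptprc* barcodes. The low level in other *Epcam* barcodes is set by the choice, since barcodes with more granin and no *Ptprc* were placed in the enteroendocrine group.

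The upstream 250 bases of *Chga* and of 3 hormone genes that the results below turn on are shown as the stretch just before the RefSeq start (GRCm38.p6). Capitals mark matches to TGACGT, the core of the cAMP response element, or to CAGNTG, an E-box of the kind that NEUROD1 and related factors can bind, both searched on both strands. *Chga* (chr12:102554691-102554940, plus strand) holds both motifs. *Sct* (chr7:141279134-141279383, minus strand), *Cck* (chr9:121495695-121495944, minus strand) and *Gip* (chr11:96024295-96024544, plus strand) hold E-boxes.
Chga: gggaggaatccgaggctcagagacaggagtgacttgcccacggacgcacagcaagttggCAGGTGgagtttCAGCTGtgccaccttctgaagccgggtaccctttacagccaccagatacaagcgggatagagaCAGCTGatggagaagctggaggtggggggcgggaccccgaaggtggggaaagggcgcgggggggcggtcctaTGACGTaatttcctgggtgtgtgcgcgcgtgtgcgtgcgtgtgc
Sct: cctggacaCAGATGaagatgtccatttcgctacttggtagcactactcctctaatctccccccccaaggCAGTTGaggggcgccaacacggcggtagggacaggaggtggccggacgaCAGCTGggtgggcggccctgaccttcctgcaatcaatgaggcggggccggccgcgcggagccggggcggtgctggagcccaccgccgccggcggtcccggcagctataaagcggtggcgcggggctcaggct
Cck: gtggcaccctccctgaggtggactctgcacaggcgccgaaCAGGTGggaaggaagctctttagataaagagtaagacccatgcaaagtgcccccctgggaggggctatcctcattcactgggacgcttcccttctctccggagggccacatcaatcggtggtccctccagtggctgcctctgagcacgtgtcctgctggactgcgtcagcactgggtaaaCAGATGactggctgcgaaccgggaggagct
Gip: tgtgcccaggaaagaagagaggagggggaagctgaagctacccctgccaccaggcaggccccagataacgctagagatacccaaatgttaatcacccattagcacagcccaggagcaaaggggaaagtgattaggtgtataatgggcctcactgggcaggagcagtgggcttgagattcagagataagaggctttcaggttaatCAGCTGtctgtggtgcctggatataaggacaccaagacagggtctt
Of the 10 genes, all with a RefSeq entry, 3 held TGACGT in the first listed window (*Chga*, *Chgb* and *Sst*), against 6.56% of 27025 genes, and 8 held CAGNTG, against 44.5%. A match says only that the letters are there.

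*Sct* encodes secretin, the hormone that drives bicarbonate secretion, and it was the hormone found in most enteroendocrine barcodes. It was present in 41 of 44, 26 of 27 and 19 of 19 of them. Across single barcodes the control ran from 0 to 125322 CPM with a median of 743, the KO from 0 to 94727 with a median of 4858, and the rescue from 43.9 to 189232 with a median of 3874. The ranges overlapped, and the 2 mutant medians were higher than that of the control. Summed over barcodes, *Sct* was 5.84-fold higher in the KO than in the control (5.60 to 6.08) and 3.71-fold higher in the rescue (3.56 to 3.86). Without the barcode with most *Sct* in each library these folds were 8.19 and 3.53. Over all deposited barcodes they were 1.68 and 1.89, and there the rescue was 1.13-fold higher than the KO, whereas it was 1.57-fold lower in enteroendocrine barcodes. A hormone is called carried where a barcode held at least 3 of its UMIs and these made up at least 0.05% of the UMIs of the barcode, a definition applied after the values were seen. *Sct* was carried by 25 of 44 control barcodes (56.8%; 41.0 to 71.7%), 24 of 27 KO barcodes (88.9%; 70.8 to 97.6%) and 17 of 19 rescue barcodes (89.5%; 66.9 to 98.7%).

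Barcodes in which *Sct* was the leading hormone numbered 17, 15 and 12, and most held *Tph1* and *Tac1*, genes of enterochromaffin cells. *Tph1*, the enzyme that starts serotonin synthesis, was found in 17, 12 and 12 of them at 2324, 3452 and 2519 CPM. *Tac1*, the substance P precursor, was found in 17, 11 and 11 of them, at 13246, 3147 and 3589 CPM. *Sct* itself stood at 9239, 26229 and 32665 CPM in these barcodes, so the order of the libraries was the opposite for *Tac1* and *Sct* between the control and each mutant. Over all enteroendocrine barcodes *Tac1* stood at 6265 CPM (6094 to 6439), 1928 CPM (1784 to 2080) and 2014 CPM (1900 to 2132). There *Tph1* was found in 30 of 44, 22 of 27 and 14 of 19 barcodes. *Tac1* was found in 35 of 44 control and 17 of 27 KO barcodes. Neither gene was thus particular to barcodes led by *Sct*.

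*Cck* encodes cholecystokinin, released after fat and protein. Its UMIs lay in few barcodes. The control had 4426, 2460, 1753 and 193 UMIs in its 4 highest barcodes and 13 barcodes with any; the KO had 3059, 1645, 1295, 1206 and 1139 in its 5 highest of 11; and the rescue had 3135, 2219 and 2115 in its 3 highest of 9. *Cck* stood at 11052, 24371 and 12988 CPM. It was carried by 7 of 44, 7 of 27 and 5 of 19 barcodes, and the intervals of these shares overlapped (6.64 to 30.1%, 11.1 to 46.3% and 9.15 to 51.2%). The KO fold over the control was 2.21 (2.14 to 2.27), an interval that does not cover the spread between so few cells. Over all deposited barcodes the direction was the opposite, with *Cck* at 104 CPM in the KO and 168 CPM in the control, a 1.61-fold lower level.

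*Ghrl* encodes ghrelin, which is made in the stomach and also by a subset of small intestinal cells. The control had 1568, 579, 340 and 17 UMIs in its 4 highest barcodes, the KO 1188, 354, 275, 235, 114 and 25 in its 6 highest, and the rescue 1141, 107 and 30. In the control 2 barcodes were led by *Ghrl*, and both held *Mboat4*, the enzyme that acylates ghrelin, at 595 CPM over the pair. No KO or rescue barcode was led by *Ghrl*: the ghrelin UMIs there lay in barcodes with more *Cck* or *Sct*. Some ghrelin-rich barcodes were poor in granins and so lay outside the enteroendocrine choice. In other *Epcam* barcodes of the control 2 barcodes held 1548 and 657 *Ghrl* UMIs with granins at 0.0532% and 0.0257% of UMIs, and 44.3% of all control *Ghrl* UMIs lay in other *Epcam* barcodes against 47.7% in enteroendocrine barcodes. The KO was 2.06-fold higher than the control in enteroendocrine barcodes and 3.32-fold lower over all deposited barcodes.

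*Gcg* encodes proglucagon, which intestinal cells cut to glucagon-like peptides. Its UMIs lay in 5 control barcodes (1030, 113, 4, 1 and 1), 3 KO barcodes (421, 49 and 10) and 2 rescue barcodes (1487 and 1182). Barcodes with *Gcg* as a carried hormone all carried *Cck* and *Sct* as well, 2 of 2, 3 of 3 and 2 of 2. Levels of 1415, 1394 and 4609 CPM rest on these barcodes, and without the highest in each library the rescue fold over the control moved from 3.26 to 14.0. Over all deposited barcodes the KO was 3.86-fold lower than the control.

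*Pyy* encodes peptide YY, best known from the ileum and colon. In the control it was found in 1 of 44 enteroendocrine barcodes, with 4 UMIs. The KO had 1328, 646, 445, 434, 280, 215, 198, 60, 10, 10 and 1 UMIs in 11 of 27 barcodes, and the rescue had 621, 419, 20, 11 and 10 in 5 of 19. Per barcode the control one stood at 187 CPM, the 11 KO ones at 445 to 75181 CPM and the 5 rescue ones at 124 to 35308 CPM. The control barcode was lower than all 11 in the KO and 4 of the 5 in the rescue, whose barcode at 124 CPM had 80822 UMIs. It was carried by 0 of 44 control barcodes (0%; up to 8.04% by Clopper-Pearson), 10 of 27 KO barcodes (37.0%; 19.4 to 57.6%) and 4 of 19 rescue barcodes (21.1%; 6.05 to 45.6%). The KO interval lay above that of the control, and the rescue interval overlapped both. Thinned to 2000 UMIs per barcode, *Pyy* was found in 0 of 43, 8 of 23 and 4 of 19 barcodes. Over all deposited barcodes the control held 6 *Pyy* UMIs, the KO 3838 and the rescue 1197.

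The *Pyy* barcodes of the mutants also held other hormones. All 10 KO and all 4 rescue barcodes that carried *Pyy* also carried *Sct*, and 8 of 10 and 3 of 4 held *Tph1*. *Cck* was carried by 3 of the 10 and 1 of the 4. Over all enteroendocrine barcodes of these libraries *Sct* was carried by 24 of 27 and 17 of 19. *Tph1* was held by 22 of 27 and 14 of 19 there, and *Cck* was carried by 7 of 27 and 5 of 19. The counts in *Pyy* barcodes were near these shares. In *Pyy*-carrying barcodes *Tac1* stood at 263 and 116 CPM in the 2 mutants. Among the 10 KO barcodes, the barcode with 60 *Pyy* UMIs also held 11079 UMIs of 10 goblet cell genes.

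*Nts* encodes neurotensin. It was found in 3 KO barcodes with 900, 84 and 1 UMIs and in no control or rescue enteroendocrine barcode, where 0 of 44 and 0 of 19 allow shares of barcodes with an *Nts* UMI of up to 8.04% and 17.6% (Clopper-Pearson). Both KO barcodes that carried it were led by *Cck* and also carried *Sct* and *Ghrl*. At 2860 CPM the KO level was at least 774-fold higher than the control floor of 3 counts over the group, and 900 of its 985 UMIs came from 1 barcode.

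*Gip* encodes the glucose-dependent insulinotropic peptide of the proximal gut. The control had 4836, 2914, 116 and 1 UMIs in 4 barcodes, the KO 170, 25, 15, 2 and 2 in 5, and the rescue 3190, 40 and 1 in 3. It was carried by 3 of 44, 3 of 27 and 2 of 19 barcodes. At 9690, 621 and 5579 CPM the KO was 15.6-fold lower than the control (13.6 to 17.9), but the number of carrying barcodes was alike and the level rests on 2 control barcodes. In the rescue 1 barcode held 3190 of 3231 UMIs, and without the highest barcode in each library the rescue was 52.3-fold lower than the control and 1.96-fold lower than the KO, where it had been 8.98-fold higher than the KO. In the KO 49.4% of *Gip* UMIs lay in barcodes over the mitochondrial limit, against 2.57% in the control. Barcodes led by *Gip* held *Isl1*, a transcription factor of several endocrine lineages, at 965 CPM in the control (2 of 3 barcodes) and 1078 CPM in the rescue (2 of 2). The single KO barcode led by *Gip* had 1938 UMIs in all and 0 of *Isl1*, which allows up to 1903 CPM. None of these barcodes held a *Tph1* UMI.

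*Sst* encodes somatostatin, the inhibitory peptide of D cells. It was all but missing from enteroendocrine barcodes, with 0, 0 and 2 UMIs. The counts of 0 allow a share of barcodes with an *Sst* UMI of up to 8.04% in the control and 12.8% in the KO (Clopper-Pearson). Somatostatin was present elsewhere in the rescue, in a barcode with 3759 *Sst* and 1315 *Ghrl* UMIs that had 29.1% mitochondrial UMIs and 0.0934% granins, and in an *Epcam* barcode of 128820 UMIs with 1016 *Sst* and 273 *Ghrl* UMIs.

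**Figure D2:**
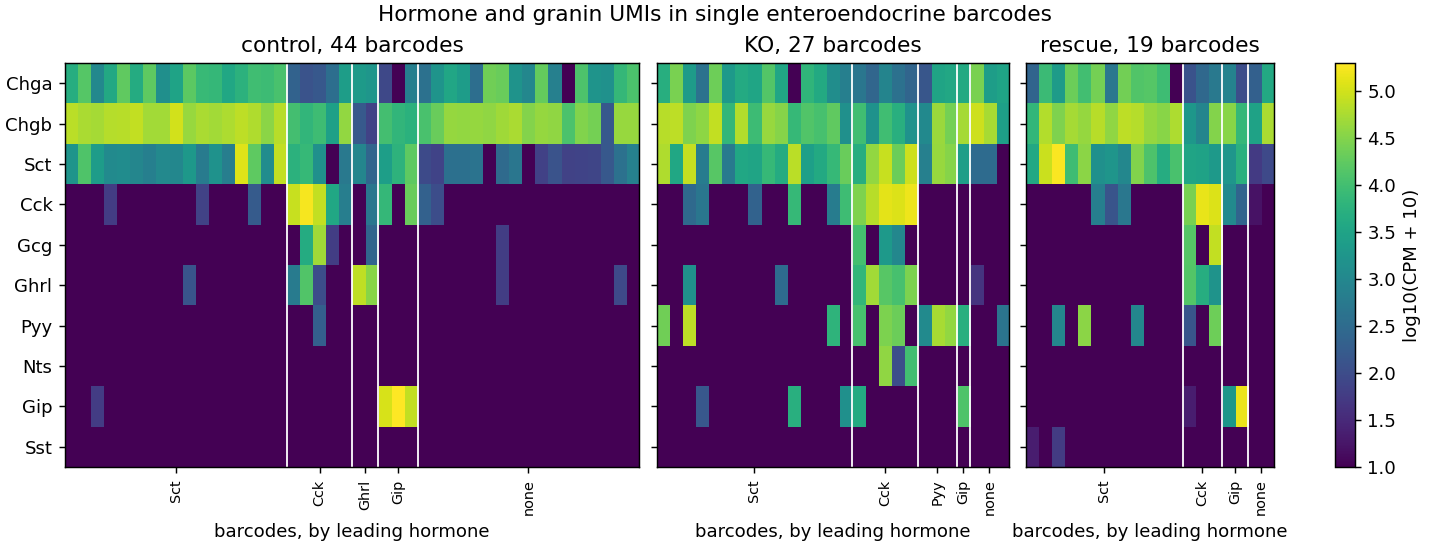
Each column is an enteroendocrine barcode and each row a gene; colour gives log10(CPM + 10), with barcodes grouped by leading hormone and white lines between groups. *Pyy* is found in 1 of 44, 11 of 27 and 5 of 19 barcodes, and *Cck*-led barcodes hold several other hormones.

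Enteroendocrine barcodes often carried more than 1 hormone. At least 2 of the 8 hormones were carried by 8 of 44 control barcodes (18.2%; 8.19 to 32.7%), 14 of 27 KO barcodes (51.9%; 31.9 to 71.3%) and 9 of 19 rescue barcodes (47.4%; 24.4 to 71.1%). At least 3 were carried by 5, 8 and 4 barcodes (11.4%, 29.6% and 21.1%). The interval of the control overlapped those of both mutants for both counts. The 5 KO barcodes led by *Cck* carried 3 to 6 hormones each: all 5 had *Cck*, *Sct* and *Ghrl*, 3 had *Pyy* and 2 had *Nts*. In the control, where *Cck* led 5 barcodes, they carried 1 to 4. In barcodes of 5000 to 30000 UMIs, chosen after the values were seen to narrow the depth gap, at least 2 hormones were carried by 7 of 40 control, 7 of 14 KO and 8 of 15 rescue barcodes, and *Pyy* by 0, 5 and 4. Doublets were not called, and their part in these counts was not tested.

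**Figure D3:**
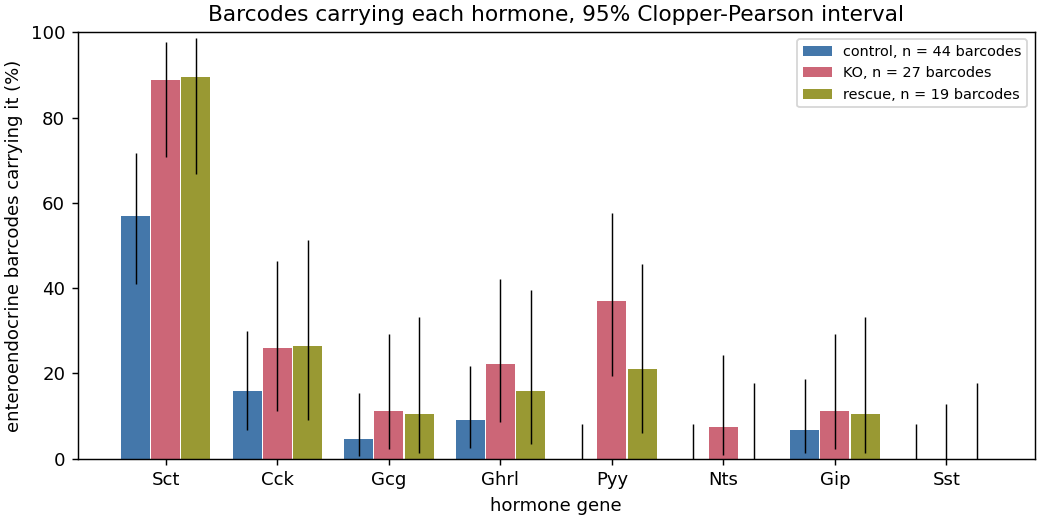
Percent of enteroendocrine barcodes that carried each hormone, by library, with 95% Clopper-Pearson intervals. *Pyy* is at 0% (control), 37.0% (KO) and 21.1% (rescue), and *Sct* at 56.8%, 88.9% and 89.5%.

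Markers of other cell types moved with the libraries in these barcodes, and their part in the hormone values was not tested. The summed level of 10 goblet genes was 1435, 40855 and 1647 CPM; 0 of the 10 were at 0 in the KO and the rescue, and 1 was listed at 0 in the control. A KO barcode of 52429 UMIs held 78.7% of the KO goblet UMIs, and without it the KO level was 10245 CPM. That barcode was led by *Pyy* (60 UMIs) and is 1 of the KO barcodes counted as carrying *Pyy*. Its granins, at 0.12% of UMIs, were the nearest to the threshold in the KO. For the goblet genes the median barcode stood at 673, 5095 and 1189 CPM. The 12 enterocyte genes summed to 1652, 6196 and 2435 CPM, with 0, 1 and 0 of them at 0. Without the KO barcode of 52429 UMIs the KO enterocyte level was 4206 CPM. The 10 cycling genes summed to 69.0, 113 and 686 CPM, with 2, 2 and 0 at 0. A rescue barcode of 159276 UMIs held 65.7% of the rescue cycling UMIs, and without it the rescue level was 324 CPM. The segment of small intestine is not given. Proximal markers were at 8362, 18825 and 4760 CPM in other *Epcam* barcodes, *Cybrd1* at 1.7, 808 and 0.7 CPM there, and the 8 distal markers together at 125, 740 and 128 CPM. *Fabp1* (6218.5, 10068 and 3506 CPM) and *Apoa4* (1275, 6663 and 500 CPM) made up most of the proximal sum. *Lct*, also a proximal marker, went the other way, at 92.3, 0.32 and 40.0 CPM. Of the 10 proximal markers 4 were at least 2-fold higher in the KO than in the control and 1 was lower, against 11.4% and 26% of all genes. Of the distal markers *Muc3*, a membrane mucin, made up most of that sum, at 74.7, 708 and 80.0 CPM, and the ileal bile acid genes *Slc10a2* and *Fabp6* were low, at 1.11, 3.40 and 0.96 CPM and at 0.44, 0.81 and 2.45 CPM. Proximal and distal sums were thus both highest in the KO, and hormone differences and differences of segment cannot be told apart.

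**Figure D4:**
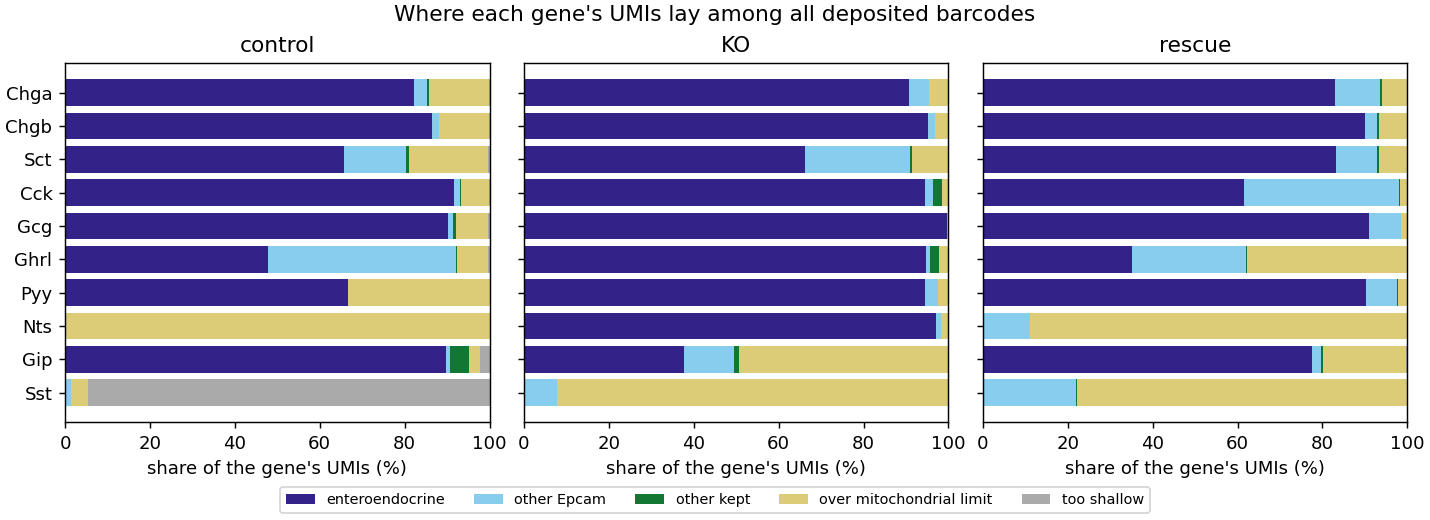
Share of each gene's UMIs, over all deposited barcodes of a library, that lay in enteroendocrine, other *Epcam*, other kept, over-limit mitochondrial and too shallow barcodes. Nearly all *Pyy* UMIs of the KO lie in enteroendocrine barcodes (94.5%), whereas *Sst* UMIs lie outside them.

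*Sct* was also found outside enteroendocrine barcodes. It stood at 34.6, 46.9 and 21.6 CPM in other *Epcam* barcodes, against 6.0, 7.4 and 5.4 CPM in *Ptprc* barcodes. At 2000 UMIs per barcode it was present in 5.5%, 9.8% and 4.7% of other *Epcam* barcodes, and in 1.42%, 1.69% and 1.29% of *Ptprc* barcodes. It was carried by 14, 29 and 7 other *Epcam* barcodes. In those the goblet genes summed to 110740, 284015 and 95301 CPM, against 10673, 18538 and 6949 CPM in the rest. The genes of granule processing summed to 349, 14.1 and 874 CPM in them, against 37.4, 12.9 and 11.6 CPM in the rest. Most *Sct* UMIs of other *Epcam* barcodes lay in the rest: 556, 2441 and 715, against 159, 527 and 254 in the carrying barcodes. The split was made after the values were seen and is described only.

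Other genes of these cells were read from lists, with a 2-fold difference as the call and the share of all tested genes called beside it. Between the KO and the control 5.14% of 5967 genes were at least 2-fold higher and 19.1% at least 2-fold lower. The granins chose the barcodes and are left out of the counts that follow. Of 7 of the 8 hormones with enough UMIs 5 were higher (*Sct*, *Cck*, *Ghrl*, *Pyy* and *Nts*) and 1 was lower (*Gip*). *Nts* (985 against 0 UMIs) and *Pyy* (3627 against 4) had enough UMIs in the KO only, so a lower call was not open to them. The shares of all genes include genes tested in this way too. Between the rescue and the control 6.66% were higher and 13.4% lower, and 3 of 6 tested hormones were higher (*Sct*, *Gcg* and *Pyy*) and 0 lower. *Pyy* had enough UMIs in the rescue only (1081 against 4), so a lower call was not open to it. Between the rescue and the KO 16.3% were higher and 7.69% lower, and 2 of 7 hormones were higher (*Gip* and *Gcg*) and 3 lower (*Pyy*, *Nts* and *Ghrl*). *Nts* had enough UMIs in the KO only (985 against 0), so a higher call was not open to it. The median of all genes was -0.35, -0.22 and 0.20 on the log2 scale, and the 3 comparisons share libraries. In other *Epcam* barcodes, where these genes are low, 1 of 5 tested hormones was higher in the KO than in the control (*Pyy*) and 3 were lower (*Cck*, *Gip* and *Ghrl*), against 11.4% and 26% of all genes. *Pyy* was tested there through its KO UMIs only (115 against 0). For the rescue over the control 4 of 7 were higher and 1 lower, against 3.87% and 12%, and for the rescue over the KO 4 of 7 were higher and 1 lower, against 23.1% and 11.3%. Of those higher than in the control, *Gcg*, *Sst* and *Pyy* were tested through their rescue UMIs only (224, 1072 and 88 against 13, 3 and 0). Of those higher than in the KO, the same held for *Gcg* and *Sst* (2 and 1 UMIs in the KO). The rescue values rest on few barcodes: 1 barcode of 178235 UMIs held 2517 of 4436 *Cck* UMIs and 205 of 224 *Gcg* UMIs.

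Of 25 endocrine transcription factors 22 were tested between the KO and the control. Of these 1 was higher and 11 lower, against 5.14% and 19.1% of all genes. Among the lower ones only *Insm1* (53 against 416 UMIs) and *Nkx2-2* (23 against 264) had at least 20 UMIs in both libraries. The others had enough UMIs in the control only, the library with more enteroendocrine UMIs, so their calls lean on the filter. *Neurog3*, the progenitor factor, had 179 UMIs in 15 of 44 control barcodes (220 CPM; 189 to 255), 0 in the 27 KO barcodes and 18 in 5 of 19 rescue barcodes (31.1 CPM). It also stood at 33.0 CPM in other *Epcam* barcodes of the control, against 1.34 and 1.23 CPM in those of the mutants. *Insm1*, a factor of endocrine progenitors, stood at 512, 154 and 313 CPM and *Nkx2-2* at 325, 66.8 and 133 CPM. Other abundant factors did not fall in this way in the KO. *Neurod1* stood at 616, 546 and 556 CPM, *Sox4* at 510, 636 and 309 CPM and *Bex2* at 360, 334 and 262 CPM. In the control, split by *Neurog3* after the values were seen, the 15 barcodes with it held *Sct* at 507 CPM and *Cck* at 275 CPM, against 5789 and 16844 CPM in the other 29. *Gcg* (3.5 against 2174 CPM) and *Gip* (0 against 14897 CPM) were also lower in the 15. *Ghrl* went the other way, at 5529 against 1782 CPM, but 1 barcode held 1568 of its 1569 UMIs in the 15. By barcodes, *Ghrl* was found in 2 of the 15 and 6 of the 29.

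Granule genes did not move together: of 18 tested between the KO and the control 6 were higher and 3 lower. *Scg2*, secretogranin II, stood at 171, 787 and 444 CPM, and *Pcsk1n*, an inhibitor of the prohormone convertase *Pcsk1*, at 195, 717 and 309 CPM. *Pcsk1* itself stood at 395, 372 and 273 CPM. Of 8 serotonin genes tested 0 were higher and 2 lower (*Fev* and *Slc18a2*), against 5.14% and 19.1% of all genes. *Tph1* stood at 1070, 1803 and 1129 CPM, *Slc18a1* at 184, 331 and 233 CPM and *Slc38a11* at 60.4, 113 and 46.6 CPM. *Ddc* (847, 575 and 439 CPM) and *Gch1* (484, 346 and 224 CPM) fell from control to KO. So did *Fev* (251, 78.4 and 166 CPM) and *Slc18a2* (117, 43.6 and 22.4 CPM). For *Slc18a2* only the control had enough UMIs (95 against 15).

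Patterns most like each hormone were named by the correlation of log2(CPM + 100) over the 44 control barcodes, which share a library and differ in depth. For *Chga* it was highest with *Slc18a1*, the vesicular monoamine transporter of enterochromaffin cells, at 0.79 (0.57 over the KO barcodes and 0.72 over the rescue barcodes). For *Chgb* it was *Tac1* at 0.73 (0.72 and 0.51), and for *Sct* *Myl7* at 0.71 (0.56 and 0.67). *Cck* was closest to *Fars2* at 0.68 (0.75 and 0.89) and *Gip* to *Fabp5* at 0.86 (0.31 and 0.86). *Ghrl* was closest to *Maged2* at 0.84, a value that was 0.53 and -0.02 over the mutant barcodes, and the values of *Gip* and *Ghrl* rest on 4 and 8 barcodes with the gene.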

How the data were processed

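Per the labels, 4000 to 5000 cells were taken per library from crypts digested with TrypLE. The deposited values are counts: UMI counts per gene and barcode, as the authors' Cell Ranger wrote them. The file headers name version 3.0.2 (control, KO) and 3.1.0 (rescue) and the submitters' processing notes 1.3.0. The genome build: not given in the sources used here. Total depth was 58433966, 85525811 and 64355665 UMIs. Members and lists were chosen with earlier results of these data known.

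CPM is a gene's UMIs over all UMIs of the same barcodes, with exact Poisson intervals; shares have Clopper-Pearson and ratios conditional exact binomial intervals. Coordinates are from GENCODE M21, promoters from RefSeq. Genes with at least 20 UMIs in 1 of 2 libraries were compared for a 2-fold difference. Shares of barcodes were thinned to 2000 UMIs. No doublet caller was run. The ratio and thinning steps were tested on simulated data. The plan was to name all members, fixed genes (*Neurog3*, *Tph1*, *Tac1*, *Ptprc*, *Epcam*) and list genes that led a hormone group. It also held the 4 genes of each list with most UMIs in control enteroendocrine barcodes and the 3 most correlated genes per hormone. Not all of these are given: several list genes are left out, and only the most correlated gene is given, with none for *Gcg*. *Scg2*, *Pcsk1n*, *Nkx2-2*, *Slc18a2*, *Slc38a11*, *Cybrd1*, *Apoa4*, *Lct*, *Muc3*, *Slc10a2* and *Fabp6* were named after their values were seen. Alternatives changed each threshold in turn. Python 3.11.15, numpy 2.4.6 and scipy 1.17.1 were used.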

Additional observations from a re-analysis of the deposited data

Results flagged for a closer look

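Somatostatin in all 3 libraries, and neurotensin in the control and the rescue, had more UMIs in barcodes outside the cell limits than inside them. *Sst* had 215 UMIs outside and 3 inside in the control, of which 205 lay in 1 barcode of 710 UMIs, 12 outside and 1 inside in the KO, and 3823 outside and 1084 inside in the rescue, of which 3759 lay in 1 barcode. *Nts* had 11 outside and 0 inside in the control and 8 outside and 1 inside in the rescue. In the KO, the library with most *Nts*, it was the reverse, with 17 outside the limits and 998 inside.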

How the results depend on the processing

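The control had the highest enteroendocrine share under every setting run, with 1.87% without a mitochondrial limit, 8.35% at a limit of 10% and 3.74% with 1 *Epcam* UMI, where the KO share without a limit was 1.00% and the rescue share at 10% was 5%. Of 30 alternative shares 25 stayed within the interval of the main value. Of 262 alternative log2 ratios 91 stayed within the interval of the main value, and 155 moved outside it. The remaining 16 took the other sign, which was counted only where the main interval did not hold 1. Other sign changes are thus not among the 16: *Gcg* for KO over control was 0.98-fold, and 1.28-fold without the highest barcode. With the mean of per-barcode CPM, *Chga* was -0.15 for KO over control, 0.29 for rescue over control and 0.44 for rescue over KO, and *Chgb* 0.34 for rescue over KO. Without the highest barcode, *Chga* was -0.24 for KO over control and *Gip* -0.97 for rescue over KO. At the 10% limit *Chga* was 0.38 for rescue over control and 0.11 for rescue over KO. With barcodes chosen by 10 other genes, *Chga* was 0.22 for rescue over control and *Chgb* 0.26 for KO over control. In barcodes of 5000 to 30000 UMIs, a setting chosen after seeing the data, *Chga* was 0.58, *Chgb* 0.088 and *Gip* 0.24 for rescue over control, and *Chgb* 0.20 for KO over control. At a granin threshold of 0.2%, *Chgb* was 0.14 for KO over control and *Cck* -0.54 for rescue over control. The cause was not tested. *Sct* and *Pyy* kept their direction in all 3 comparisons under every alternative that gave a value; over all deposited barcodes, which are another population, *Sct* was 1.13-fold higher in the rescue than in the KO. No paired analysis was possible because there is 1 library per genotype. With 19 to 44 enteroendocrine barcodes per library, hormones held by few cells are limited by the number of cells.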
